A study of Bos taurus with 60 samples.

Results

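The miRNAs of the cecum were compared with those of the spiral colon in the same 10 beef steers, each of which gave 1 library of either region. The 20 libraries are part of 60 small RNA libraries from 6 regions of the bovine intestine. All miRNAs that reached more than 1 CPM (counts scaled by the library total) in at least 3 libraries of either region were tested, which were 364 of the 608 listed. Of these, 342 passed this filter in both regions, 13 through the cecum alone and 9 through the spiral colon alone. The other 244 were not tested, 50 of them had no count in the 20 libraries, and none of them exceeded 8.84 CPM in any library. The cecum libraries came from 5 super-shedders (SS), feedlot steers shedding E. coli O157 at high numbers, and from 5 non-shedders (NS), pen-mates whose feces were negative, and the spiral colon libraries came from the same animals. Pieces of the intestinal wall were snap-frozen when they were collected, so each library holds the RNA of all cell types of the piece, and fewer cells of a type cannot be told apart from less miRNA per cell. According to the methods of the study, only 1 of the 5 SS steers still shed at the super-shedder level at slaughter.

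miRNAs are short RNAs that bind to messenger RNAs through a seed at their 5′ end and lower the amount of protein made from them. The cecum is the blind pouch where the small intestine meets the large one, and the spiral colon is the coiled part of the ascending colon of ruminants. Several miRNAs mark cell types or position in the gut. In human and mouse, miR-192, miR-194 and miR-215 are abundant in intestinal epithelium, miR-143 and miR-145 in smooth muscle, miR-142 and miR-150 in leukocytes, and miR-9 and miR-124 in neurons. The genes of miR-10 and miR-196 lie within the HOX clusters, which set position along the body axis of vertebrates, and miR-196 belongs to posterior parts.

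The cecum libraries held 875432 to 4995993 counts and the spiral colon libraries 1072864 to 4836097, so that a count of 0 allows up to 3.43 CPM in the smallest cecum library and up to 2.80 CPM in the smallest spiral colon library. These limits cover counting error only. In a principal component analysis, the region took up 6.38, 0.74, 18.5 and 14.1% of the variance of the first 4 components, which held 24.7, 16.4, 10.7 and 8.57% of all variance.

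Position along the gut was checked with bta-miR-196b, and 4 of the 20 libraries stood far below the rest of their region. The limit of 2 CPM that sets them apart was chosen after the values were seen. In the cecum it was at 205 to 1459 CPM in 9 libraries and at 0.93 CPM in that of SS299. In the spiral colon it was at 442 to 754 CPM in 7 libraries, but at 0.55 CPM in NS165, 0.77 CPM in SS294 and 0.93 CPM in SS299, which are 1 count each. Levels under 2 CPM were found in 9 of 10 duodenum libraries, 5 of the proximal and 6 of the distal jejunum, and 2 of the descending colon. The other jejunum libraries were at 7.62 to 197 CPM (proximal) and 4.80 to 629 CPM (distal). The highest were the distal jejunum of SS294, SS299 and NS152, at 629, 333 and 209 CPM. Next came the proximal jejunum of NS152 and SS299, at 197 and 158 CPM. NS165 had 0 CPM in the proximal and 1.53 CPM in the distal jejunum. The second miRNA of this kind, bta-miR-196a, was at 1.40 CPM in the cecum of SS299 (29.6 to 565 CPM in the other 9), and at 11.6, 34.5 and 1.86 CPM in the spiral colon of NS165, SS294 and SS299 (157 to 195 CPM in the other 7).

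**Figure D1:**
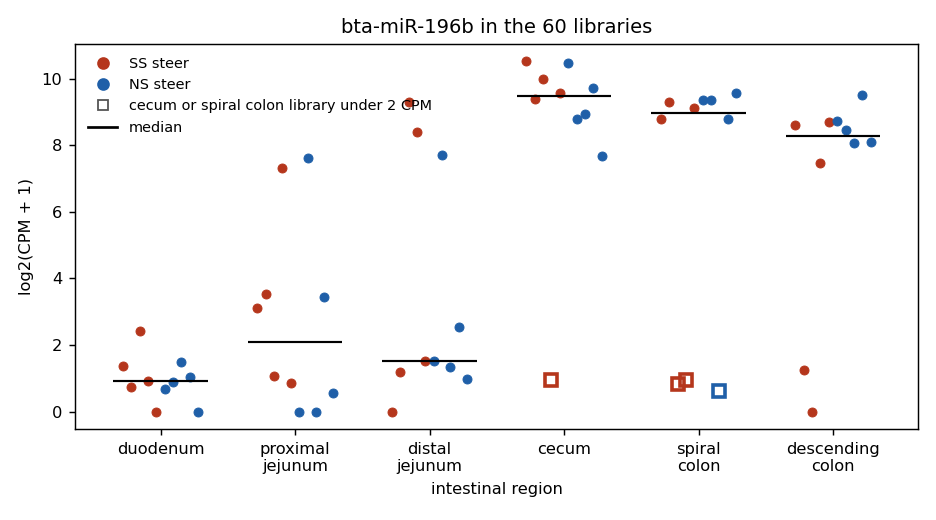
Level of bta-miR-196b, as log2(CPM + 1), in the 60 libraries by intestinal region from duodenum to descending colon, 1 point per steer, with the median of each region as a bar. Open squares are the 1 cecum library and the 3 spiral colon libraries under 2 CPM, which lie apart from the other 9 and 7.

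The same 3 spiral colon libraries stood apart in other miRNAs. They lay above all of the other 7 spiral colon libraries in 83 of the 364 miRNAs (22.8%) and below all of them in 10 (2.75%). The epithelial bta-miR-192 was at 132439, 151650 and 149845 CPM in NS165, SS294 and SS299, and at 44498 to 87323 CPM in the other 7. Other epithelial miRNAs, bta-miR-194, bta-miR-200a, bta-miR-200b, bta-miR-200c and bta-miR-141, overlapped between these 3 libraries and the other 7. Of these, bta-miR-200b was at 1608, 7056 and 4593 CPM, against 3336 to 4882 CPM. For bta-miR-150, a miRNA of mature lymphocytes, the levels were 1024, 1288 and 829 CPM, against 109 to 347 CPM. Smooth muscle bta-miR-143 was lower, at 489265, 357720 and 267922 CPM against 523004 to 621409 CPM. The other smooth muscle miRNA named above, bta-miR-145, overlapped, at 3025, 1139 and 512 CPM against 883 to 2948 CPM. What set these libraries apart was not tested, and the tissue named by the labels of these 3 libraries and of the cecum library of SS299 may not be the tissue they hold. Values given for the cecum or the spiral colon of these steers follow the labels. Results are therefore given for all 10 steers and, as a choice made after these values were seen, for the 7 steers without NS165, SS294 and SS299.

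Across all 10 steers, few miRNAs differed between the cecum and the spiral colon. At an FDR of 10%, 3 of the 364 miRNAs (0.824%) passed edgeR's quasi-likelihood test with the steer as a block and Benjamini-Hochberg adjustment, which gave every adjusted p below unless another test is named. Higher in the cecum was bta-miR-6526 (0.275% of those tested), and lower were bta-miR-215 and bta-miR-9-5p (0.549%). An unadjusted p under 0.05 was reached by 32 miRNAs (8.79%), 21 of them higher (5.77%) and 11 lower (3.02%) in the cecum. The log2 fold change of cecum over spiral colon lay between -1 and 1 for 349 miRNAs (95.9%), with 201 positive, 163 negative and a median of 0.04, and its standard error had a median of 0.28. Precision depended on abundance: the median standard error was 0.17 for the 121 miRNAs with a mean of at least 100 CPM and 0.41 for the 146 under 10 CPM. No miRNA had groups of 10 libraries that did not overlap (0%), and 10 miRNAs (2.75%) were higher and 7 (1.92%) lower in the cecum of at least 9 steers. Of the libraries left out in turn, those of SS274 and SS299 moved the count most, to 1 and 6 calls, and DESeq2 called 13.

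**Figure D2:**
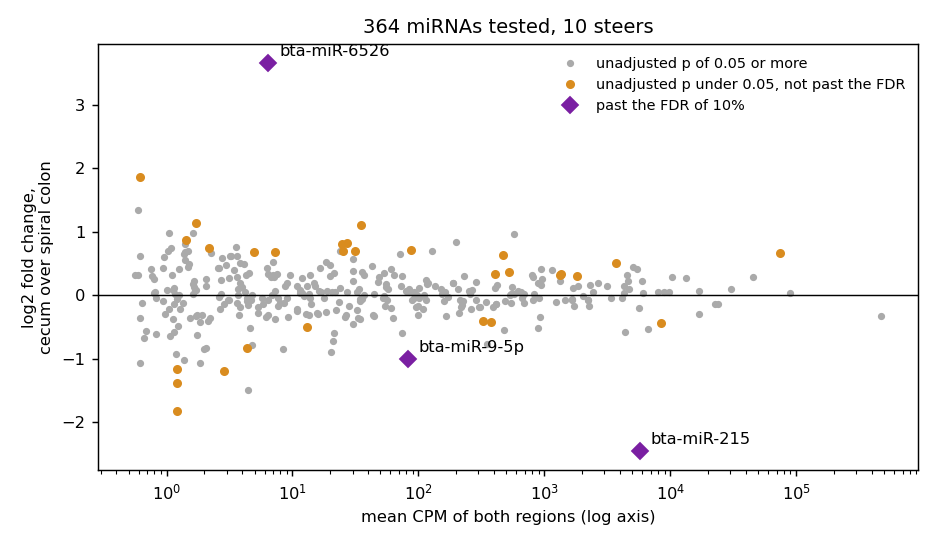
Log2 fold change of cecum over spiral colon, with the steer as a block, against the mean CPM of both regions on a log axis, for the 364 miRNAs tested. Diamonds are the 3 miRNAs past the FDR of 10%, at 3.66, -2.45 and -1.01, and the other miRNAs scatter around 0, more widely at low CPM.

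The largest difference in favour of the cecum was that of bta-miR-6526, a bovine miRNA for which no role is given here. It was at 43.8, 17.6, 26.3, 0 and 3.17 CPM in the cecum of SS274, SS287, SS294, SS299 and SS310, and at 0, 0.67, 0.77, 0 and 0 CPM in their spiral colon. In NS108, NS152, NS165, NS242 and NS745 it was at 4.57, 5.16, 5.39, 13.2 and 2.60 CPM in the cecum, and at 1.25, 0.62, 0, 1.82 and 1.60 CPM in the spiral colon. All cecum libraries but that of SS299, which had no count and is 1 of the 4 libraries set apart, exceeded every spiral colon library. The mean was 12.2 ± 13.8 CPM in the cecum and 0.67 ± 0.69 CPM in the spiral colon (SD, n = 10 each), with a log2 fold change of 3.66 (standard error 0.60, adjusted p = 0.0155). These are low counts, 0 to 60 in a cecum library and 0 to 5 in a spiral colon library, so the fold is less certain than its direction. The call held without any 1 steer (adjusted p of 0.0107 to 0.0663), and in the 7 steers, where the log2 fold change was 3.30 (standard error 0.63, adjusted p = 0.0303) and the 7 cecum libraries all lay above the 7 spiral colon libraries (1 of 349 miRNAs tested there, 0.287%).

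The miRNA most strongly reduced in the cecum was bta-miR-215, which shares its seed with bta-miR-192 and is, in human and mouse, a miRNA of the intestinal epithelium. Its cecum levels were 2014, 839, 1247, 414 and 1299 CPM in SS274, SS287, SS294, SS299 and SS310, against 7648, 1794, 26139, 19347 and 1133 CPM in their spiral colon. In NS108, NS152, NS165, NS242 and NS745 the cecum held 2185, 901, 1084, 1592 and 310 CPM, against 3101, 8749, 29401, 3097 and 1730 CPM in the spiral colon. It was lower in the cecum in 9 of 10 steers, all but SS310, and the highest 3 spiral colon values were those of the 3 libraries set apart. The mean was 1189 ± 618 CPM in the cecum and 10214 ± 10752 CPM in the spiral colon (SD, n = 10 each), with a log2 fold change of -2.45 (standard error 0.50, adjusted p = 0.0438). Without SS274 the call was lost, at -2.42 and an adjusted p of 0.123 (0.0277 to 0.123 over the 10 steers left out in turn).

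Without the 3 steers, bta-miR-215 averaged 1306 ± 675 CPM in the cecum and 3893 ± 3045 CPM in the spiral colon (SD, n = 7 each). Its log2 fold change was then -1.67 (standard error 0.30, adjusted p = 0.0303) and it was lower in 6 of 7 steers. The call therefore held without the libraries set apart, at a smaller fold. With library size alone in place of TMM scaling it was -2.42 with an adjusted p of 0.130 over all 10 steers.

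The other 7 miRNAs of the epithelium list had log2 fold changes between -0.04 and 0.41, and none passed the FDR. For bta-miR-192 the log2 fold change was 0.04 (standard error 0.26), with 13981 to 175243 CPM in the cecum (median 86179) and 44498 to 151650 CPM in the spiral colon (median 62577). For bta-miR-194 it was -0.04 (standard error 0.19). RefSeq places genes of this name within 10 kb of bta-miR-192 and within 10 kb of bta-miR-215. Genes sharing a name were pooled, and bta-miR-192 and bta-miR-215 were not within 10 kb of each other. The ratio of bta-miR-215 to bta-miR-192, which does not depend on the scaling of the libraries, was 1.37% ± 0.472 in the cecum, against 9.74% ± 6.74 in the spiral colon (SD, n = 10 each). It was lower in the cecum of all 10 steers, with a mean log2 difference of -2.55 (exact two-sided permutation test of the signs, p = 0.00195, the smallest that 10 pairs can give). This ratio is 1 of 5 that were chosen after the values were seen, and its p adjusted over the 5 was 0.00326. All 5 have bta-miR-215 on top, which was picked as 1 of the 3 called of 364 in these same libraries. The adjustment does not cover that choice, so the p-values of the ratios are no independent evidence of the difference. The mean log2 difference was -2.46 over bta-miR-194 and -2.90 over bta-miR-200b, lower in all 10 steers (adjusted p of 0.00326 each), and -2.58 over bta-miR-200c, lower in 9 (adjusted p = 0.00488, exact permutation tests). Over smooth muscle bta-miR-143 it was -2.14, lower in 8 steers (exact p = 0.0410), but this was lost in the 7 steers (exact p = 0.328). The ratio of bta-miR-215 to bta-miR-192 in the 7 steers was 1.48% ± 0.472 in the cecum, against 6.43% ± 4.30 in the spiral colon and again lower in all of them (exact p = 0.0156, the smallest that 7 pairs can give, 0.0260 adjusted). How reads that match both bta-miR-192 and bta-miR-215 were assigned is not given in the sources used here.

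A smaller difference was that of bta-miR-9-5p, an arm of miR-9, which in vertebrates is expressed mainly in the nervous system. In the cecum it was at 108.01, 68.5, 81.3, 16.7 and 70.6 CPM in SS274, SS287, SS294, SS299 and SS310, and in their spiral colon at 125, 94.2, 102, 113 and 83.6 CPM. The cecum of NS108, NS152, NS165, NS242 and NS745 had 46.8, 44.7, 53.6, 66.6 and 29.2 CPM, and their spiral colon 114, 78.0, 94.9, 125 and 135 CPM. It was lower in the cecum of all 10 steers, as only 2 of the 364 miRNAs (0.549%) were, and 8 of the 10 cecum libraries lay below every spiral colon library. The mean was 58.6 ± 26.3 CPM in the cecum and 106 ± 19.03 CPM in the spiral colon (SD, n = 10 each), with a log2 fold change of -1.01 (standard error 0.22, adjusted p = 0.0578). Its call was lost without NS108 (adjusted p = 0.184), NS242 (0.141), SS274 (0.123) or NS745 (0.251), and ranged from 0.0484 to 0.251 over all 10 steers left out in turn. It was also lost with library size alone (adjusted p = 0.269), with filterByExpr (0.162) and in a fit of all 60 libraries (0.180). In the 7 steers the log2 fold change was -1.10 (standard error 0.21, adjusted p = 0.0303). The other arm, bta-miR-9-3p, was near the detection limit, at 1.23 ± 0.976 CPM in the cecum and 1.04 ± 0.655 CPM in the spiral colon (log2 fold change 0.08, standard error 0.50). Its direction turned in some of the alternatives.

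**Figure D3:**
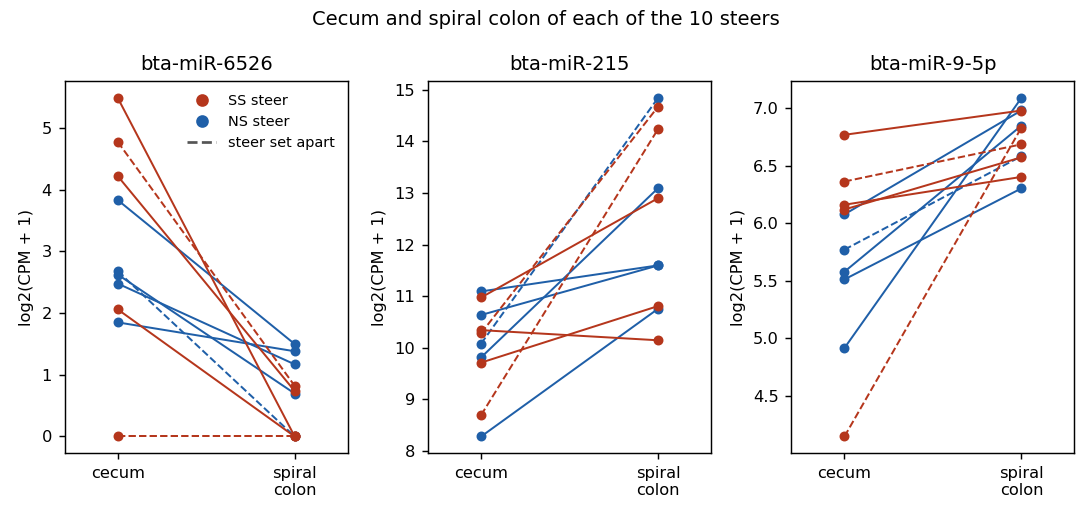
Levels of bta-miR-6526, bta-miR-215 and bta-miR-9-5p, as log2(CPM + 1), in the cecum (left) and the spiral colon (right) of each of the 10 steers, with a line per steer, and dashed lines for NS165, SS294 and SS299. The lines for bta-miR-6526 run down to the spiral colon in 9 steers, those for bta-miR-215 run up in 9 and those for bta-miR-9-5p run up in all 10.

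Along the intestine, the cecum stood out in the means of 2 of these 3 miRNAs. The mean of bta-miR-6526 was 0.71 CPM in the duodenum, 0.46 and 0.78 CPM in the proximal and distal jejunum, 12.2 CPM in the cecum, 0.67 CPM in the spiral colon and 1.31 CPM in the descending colon. For bta-miR-215 it was 32505, 26831 and 23029 CPM in the duodenum and the proximal and distal jejunum, 1189 CPM in the cecum, 10214 CPM in the spiral colon and 15380 CPM in the descending colon. The spread between steers was wide outside the cecum, where bta-miR-215 ranged over 75.8 to 67064 CPM in the proximal jejunum and 185 to 52347 CPM in the descending colon. The level of bta-miR-9-5p in the cecum, 58.6 CPM, was close to that in the duodenum, 61.4 ± 26.7 CPM, whereas the means of the other regions were 86.4 to 133 CPM. The highest of these means, in the proximal jejunum, took in 523 CPM in SS287, and the median there was 95.3 CPM. These levels over 6 regions follow the labels and are a description, with no test. They take in the libraries set apart, without which the spiral colon mean of bta-miR-215 was 3893 CPM. In the descending colon, SS287 and SS294, with 1.40 and 0 CPM of bta-miR-196b, had 52347 and 22079 CPM of bta-miR-215. NS242, with 731 CPM of bta-miR-196b, had 33809 CPM there. The 75.8 CPM of the proximal jejunum was that of SS299, with 158 CPM of bta-miR-196b.

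**Figure D4:**
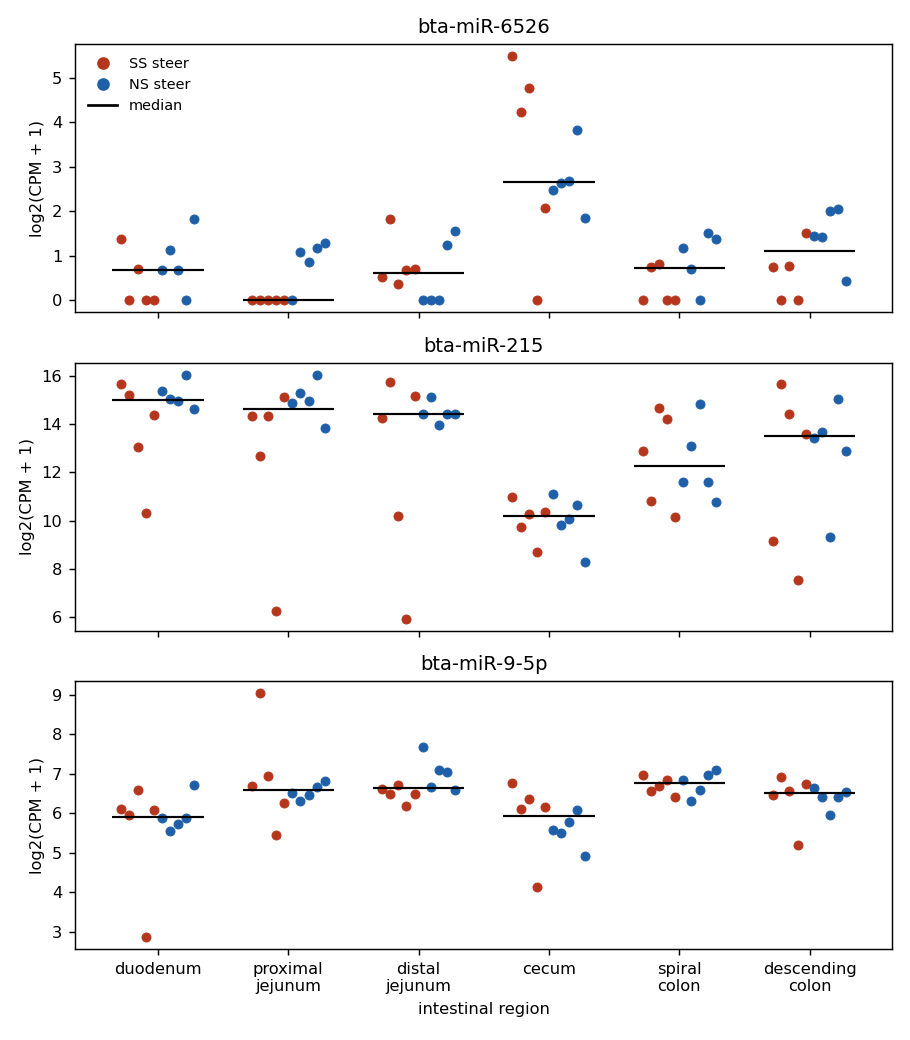
Levels of bta-miR-6526, bta-miR-215 and bta-miR-9-5p, as log2(CPM + 1), in the 60 libraries by intestinal region, 1 point per steer and a bar for the median. The cecum has the highest median of bta-miR-6526 and the lowest of bta-miR-215.

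In the 7 steers, 7 of 349 miRNAs (2.01%) passed the FDR, 3 higher in the cecum (0.860%) and 4 lower (1.15%). They were the 3 miRNAs called in all 10 steers and 4 more. An unadjusted p under 0.05 was reached by 37 (10.6%), 19 higher (5.44%) and 18 lower (5.16%). With limma-voom 7 were called, with DESeq2 17, and with library size alone only bta-miR-6526. That last scaling moved the median log2 fold change of all miRNAs to 0.24, against 0.01 with TMM.

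The first of the 4 was bta-miR-375, a miRNA of hormone-secreting and goblet cells in mouse, at 611 to 11922 CPM in the 7 cecum libraries (median 4586) and 6247 to 12263 CPM in the spiral colon (median 7646). It was lower in the cecum of 6 of 7 steers, by a log2 fold change of -1.24 (standard error 0.27, adjusted p = 0.0535). The lowest cecum value was that of NS745, where bta-miR-192 was also lowest and bta-miR-143 highest. Over all 10 steers bta-miR-375 was at a log2 fold change of -0.53 (standard error 0.38, adjusted p = 0.669), and SS310, NS165 and SS299 had more of it in the cecum.

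Placed here on the neuronal list, bta-miR-153 was also lower in the cecum of 6 of 7 steers. It was at 13.0 ± 6.69 CPM in the cecum and 30.7 ± 13.3 CPM in the spiral colon (SD, n = 7 each). The log2 fold change was -1.65 (standard error 0.37, adjusted p = 0.0535), and -0.89 over all 10 steers (adjusted p = 0.541). Of the 10 steers, 7 had less bta-miR-153 in the cecum, and SS294, SS299 and SS310 had more of it there. By region, its mean was highest in the duodenum, at 71.2 CPM against 12.5 to 25.2 CPM elsewhere. That of bta-miR-375 was also highest there, at 8280 CPM against 2862 to 7200 CPM. In contrast, the mean of bta-miR-9-5p was 61.4 CPM in the duodenum and 133 and 111 CPM in the proximal and distal jejunum. Its medians there were 59.4, 95.3 and 97.9 CPM, and 523 CPM in SS287 raised the mean of the proximal jejunum. Which cells bta-miR-153 came from was not tested.

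Higher in the cecum of these 7 steers were bta-miR-378 and bta-miR-378b, of a family whose best known member lies in an intron of a regulator of mitochondrial metabolism in human and mouse. The level of bta-miR-378 was 5578 ± 1830 CPM in the cecum and 3065 ± 535 CPM in the spiral colon (SD, n = 7 each), with a log2 fold change of 0.57 (standard error 0.13, adjusted p = 0.0535). Over all 10 steers it was 0.32 (adjusted p = 0.669), with bta-miR-378 higher in the cecum of 7 and lower in that of NS745, SS294 and SS299. For bta-miR-378b the log2 fold change was 0.82 (standard error 0.20, adjusted p = 0.0896). Its level differed far more between steers than between regions. It was at 61.7 to 125 CPM in the cecum and 33.1 to 56.3 CPM in the spiral colon of NS108, NS152, NS165 and NS242. The other 6, which were the 5 SS steers and NS745, had at most 7.72 CPM in the cecum and 3.73 CPM in the spiral colon. The paper reports bta-miR-378b as lower in SS than in NS steers in all regions it studied. The log2 fold changes given here compare the regions within steers. Over all 10 steers that of bta-miR-378b was 0.83 with an adjusted p of 0.279.

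All 4 tested miRNAs of the HOX clusters had a positive log2 fold change (201 of all 364 did), with a median of 0.75 beside 0.04 over all miRNAs, and none passed the FDR. For bta-miR-10b, the most abundant of them, the levels were 83956, 104477, 85555, 37928 and 151880 CPM in the cecum of SS274, SS287, SS294, SS299 and SS310, and 37670, 80172, 24643, 64912 and 77206 CPM in their spiral colon. In NS108, NS152, NS165, NS242 and NS745 they were 146203, 88696, 76642, 69758 and 68592 CPM in the cecum and 73455, 79292, 22888, 49378 and 64048 CPM in the spiral colon. It was higher in the cecum of 9 of 10 steers, all but SS299, with a log2 fold change of 0.66 (standard error 0.24, unadjusted p = 0.0155, adjusted p = 0.389).

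For bta-miR-10a the log2 fold change was 0.29 (standard error 0.40), and its cecum levels ran over 2954 to 118105 CPM while those of the spiral colon stayed within 25804 to 46726 CPM. The lowest 2 cecum values were those of SS299 and NS745 (8069 CPM). The log2 fold changes of bta-miR-196a and bta-miR-196b were 0.84 (standard error 0.49) and 0.97 (standard error 0.90). In the 7 steers, which were chosen by bta-miR-196b itself so that its fold there is no independent value, they were 0.12 (standard error 0.30) and 0.03 (standard error 0.24), with 827 ± 466 CPM of bta-miR-196b in the cecum and 590 ± 117 CPM in the spiral colon (SD, n = 7 each). That of bta-miR-10b was then 0.37 (standard error 0.13, adjusted p = 0.318) with all 7 steers higher in the cecum, and the median of the 4, set in part by that choice, was 0.23. The fifth member, bta-miR-615, was not tested and did not exceed 1 CPM in these libraries.

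Of the lists of cell type markers, those of epithelium and neurons had a member past the FDR, named above. The epithelium list had 8 members tested, 6 with a positive and 2 with a negative log2 fold change, and a median of 0.16. Its summed level was 16224 to 207164 CPM in the cecum and 56748 to 194229 CPM in the spiral colon, and was higher in the cecum of 4 of 10 steers. Over the 7 steers its median was -0.17, or 0.11 with library size alone, so that its direction turned with the scaling. The 5 miRNAs of endocrine and goblet cells had a median of -0.35 in all 10 steers and -0.57 in the 7.

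The 10 neuronal miRNAs tested were negative in 9 cases (163 of all 364 were), with a median of -0.51. Among the 9 was bta-miR-124a/b, the classical neuronal miRNA, at 1.97 ± 2.02 CPM in the cecum and 3.79 ± 1.28 CPM in the spiral colon (SD, n = 10 each, log2 fold change -1.19, unadjusted p = 0.0182, adjusted p = 0.389). The summed level of the list, which includes bta-miR-9-5p, was 124 to 399 CPM in the cecum and 226 to 460 CPM in the spiral colon, and lower in the cecum of 9 of 10 steers. Over the 7 steers 9 of 10 were again negative, with a median of -0.57, and 2 of them, bta-miR-9-5p and bta-miR-153, passed the FDR, beside 4 of all 349 called lower there (1.15%). With library size alone 7 of the 10 were negative in these steers, with a median of -0.36, and neither miRNA passed. No cell type marker list was used as a covariate, so the part of nerve tissue in these differences was not tested.

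Smooth muscle miRNAs had a median of -0.08, with 5 of 7 members negative. Their sum was dominated by bta-miR-143 and ranged over 163265 to 707813 CPM in the cecum and 268646 to 623365 CPM in the spiral colon. Without the 3 steers all 7 members were negative, with a median of -0.60 and none past the FDR. In that subset the sum was 163265 to 707813 CPM in the cecum and 525603 to 623365 CPM in the spiral colon. The 3 spiral colon libraries left out were the lowest 3 in bta-miR-143, and each of these steers had more of it in the cecum. The narrow spiral colon range and the shift of the median were thus set in part by leaving these steers out. The part of the variation between cecum libraries in the differences above was not tested.

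The 8 leukocyte miRNAs had a median of -0.35 in all 10 steers, and this rested on the libraries set apart. Their summed level was 14248, 16787 and 20242 CPM in the spiral colon of NS165, SS294 and SS299, and 2919 to 9443 CPM in the other 7, while the 10 cecum libraries had 1383 to 11361 CPM. Without these 3 steers the median was -0.06, and 0.19 with library size alone. In the 7 steers 3 of the 8 were positive and 5 negative. The positive ones were bta-miR-342 at 0.15, bta-miR-146b at 0.61 (unadjusted p = 0.0191) and bta-miR-223, a miRNA of neutrophils and monocytes, at 1.25 (standard error 0.37, unadjusted p = 0.00643, adjusted p = 0.187), the last higher in the cecum of 6 steers.

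The 3 miRNAs of red blood cells were positive, with a median of 0.64 in all 10 steers and 0.85 in the 7. Of these, bta-miR-486 was at 617 ± 626 CPM in the cecum and 316 ± 129 CPM in the spiral colon (SD, n = 10 each, log2 fold change 0.64, adjusted p = 0.392), and bta-miR-451 at 93.8 ± 119 CPM in the cecum and 49.5 ± 35.9 CPM in the spiral colon (log2 fold change 0.65, adjusted p = 0.669). The 9 miRNAs of fibroblasts and the 4 of endothelium had medians of -0.04 and 0.07. Those of pancreas and liver were not tested, with summed levels of at most 3.43 and 8.84 CPM in the cecum and at most 0.55 and 0.62 CPM in the spiral colon.

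**Figure D5:**
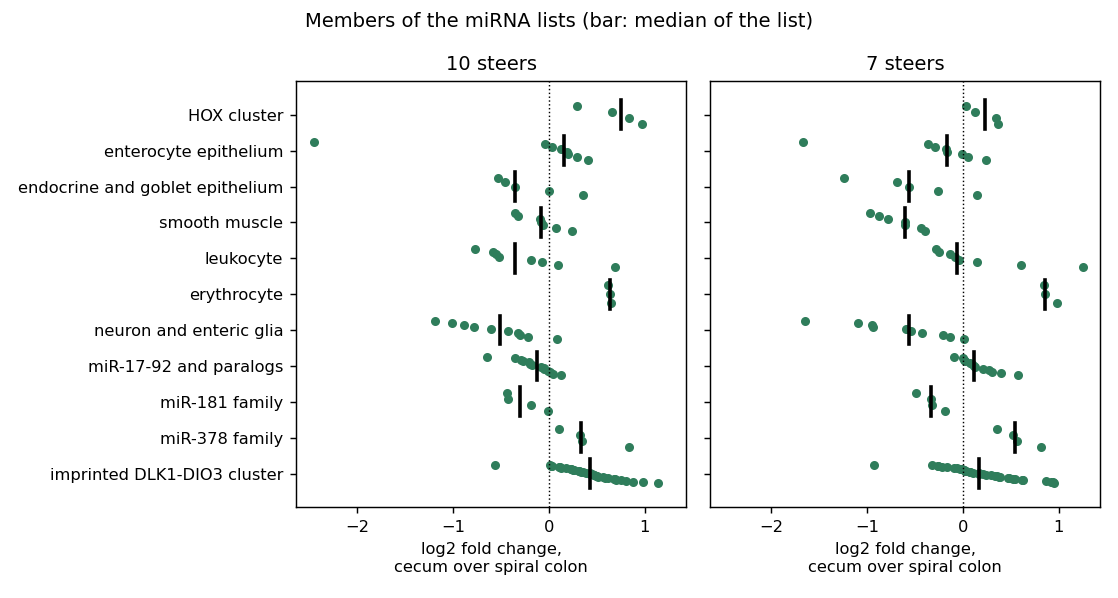
Log2 fold change of cecum over spiral colon of the members tested of 11 miRNA lists, 1 point per miRNA, with all 10 steers (left) and the 7 steers without NS165, SS294 and SS299 (right), and the median of each list as a bar. The bars of the neuronal list lie at -0.51 and -0.57, and that of the HOX cluster list at 0.75 on the left and 0.23 on the right.

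Among families and clusters, the imprinted DLK1-DIO3 cluster, a large group of miRNAs made from the maternal chromosome in mammals, had nearly all members on 1 side. Of its 36 members tested, 35 had a positive log2 fold change, with a median of 0.43, 6 had an unadjusted p under 0.05 and none passed the FDR with edgeR's quasi-likelihood test. Over all 364 miRNAs, 201 were positive and 21 (5.77%) were higher at an unadjusted p under 0.05. Its summed level was 4104 to 11513 CPM in the cecum and 2816 to 4783 CPM in the spiral colon, and was higher in the cecum of 8 of 10 steers. Most of this sum was bta-miR-127, itself higher in the cecum of 8 of 10 steers. The mean of the sum was 6315 CPM in the cecum and 4236 CPM in the spiral colon. The member bta-miR-127 was at 4524 ± 2224 CPM in the cecum and 2876 ± 545 CPM in the spiral colon (SD, n = 10 each, log2 fold change 0.51, adjusted p = 0.370). Its neighbour bta-miR-432 had a log2 fold change of 0.70 and was higher in the cecum of 9 of 10 steers (adjusted p = 0.279, but 0.0631 with DESeq2, which called it). Without the 3 steers 26 of the 36 were positive and the median was 0.17. Members of 1 cluster are made from shared transcripts and are not independent of each other.

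The 4 members of the miR-181 family, known for their part in lymphocyte development in mouse, were negative, with a median of -0.30 in all 10 steers and -0.33 in the 7, although 1 of the 4 was positive with library size alone. The neighbours bta-miR-181a and bta-miR-181b had log2 fold changes of -0.43 (standard error 0.14) and -0.42 (standard error 0.13), with adjusted p-values of 0.327 and 0.284, and were lower in the cecum of 7 of 10 steers. The neighbours bta-miR-23a and bta-miR-27a-3p had 0.36 (standard error 0.10) and 0.33 (standard error 0.12), with adjusted p-values of 0.253 and 0.389. The 4 members of the miR-378 family were positive in both sets of steers, with medians of 0.33 and 0.54. Of 14 miRNAs of the miR-17 cluster and its paralogs, which are linked to cell proliferation, 11 were negative in all 10 steers (median -0.12), but 12 of the 13 tested in the 7 steers were positive (median 0.11). The cattle-specific families miR-2284 and miR-2285 had 19 members tested, 5 positive and 14 negative, with a median of -0.14. Among them bta-miR-2284d was at 1.69 ± 1.48 CPM in the cecum and 1.58 ± 1.51 CPM in the spiral colon, and bta-miR-2284j at 1.74 ± 1.81 CPM in the cecum and 2.06 ± 2.15 CPM in the spiral colon (SD, n = 10 each), levels near that of single counts. The 6 members of miR-99, miR-100 and miR-125 tested, the 6 of miR-30 and the 5 of miR-193 and miR-365 were all positive, with medians of 0.27, 0.07 and 0.52. In the 7 steers these medians were 0.11, -0.07 (0.17 with library size alone) and 0.18. Of let-7 and miR-98, 8 of 10 members were positive (median 0.18). None of the members of these families passed the FDR in all 10 steers with edgeR's quasi-likelihood test. DESeq2 called bta-miR-181a (adjusted p = 0.0279), bta-miR-181b (0.0101), bta-miR-23a (0.0119) and bta-miR-378b (0.00738).

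Most counts in both regions came from a few miRNAs, and their shares overlapped. The 10 most abundant made up 80.1% ± 7.01 of the counts in the cecum, against 81.1% ± 6.10 in the spiral colon (SD, n = 10 each). The share of bta-miR-143 was 16.2 to 70.4% in the cecum (median 46.0%) and 26.8 to 62.1% in the spiral colon (median 54.5%), and was higher in the cecum of 5 of 10 steers (exact permutation test, p = 0.281, 0.562 adjusted over the 10 shares). The share of bta-miR-10b was 3.79 to 15.2% in the cecum (median 8.48%) and 2.29 to 8.02% in the spiral colon (median 6.45%), and higher in the cecum of 9 of 10 steers (exact p = 0.0156, 0.156 adjusted). The median share of bta-miR-22-3p was 1.43% in the cecum, against 1.14% in the spiral colon, and it was higher in 9 of 10 steers (exact p = 0.0352, 0.176 adjusted). None of the 10 shares of the library total passed after adjustment, while that of bta-miR-10b did with TMM-scaled library sizes (adjusted p = 0.0391). The number of miRNAs above 1 CPM was 310 to 384 in the cecum and 302 to 338 in the spiral colon (exact permutation test of the difference, p = 0.549).

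Whether the difference between the regions depended on the shedding of E. coli O157 was tested with an interaction term. None of the 364 miRNAs passed the FDR (0%). An unadjusted p under 0.05 was reached by 8 (2.2%), of which 2 had a higher fold in SS (0.549%) and 6 a lower one (1.65%). Neither DESeq2 nor limma-voom called any (0 each), and 8 and 10 miRNAs had an unadjusted p under 0.05 with these tools. Within the SS steers 1 miRNA passed (0.275%), bta-miR-6526, at a log2 fold change of 5.65 with an adjusted p of 0.00517. There 14 had an unadjusted p under 0.05 (3.85%), 4 higher (1.1%) and 10 lower (2.75%). Within the NS steers none did (0%), with 31 at an unadjusted p under 0.05 (8.52%), 23 higher (6.32%) and 8 lower (2.2%), and the log2 fold change of bta-miR-6526 was 2.50 with an adjusted p of 0.409. The difference of 3.15 between the phenotypes (standard error 1.04) had an unadjusted p of 0.0114 and an adjusted p of 0.999. In means, bta-miR-6526 was at 18.2 ± 17.9 CPM in the cecum of SS steers and 6.19 ± 4.08 CPM in that of NS steers (SD, n = 5 each), ranges that overlapped. For bta-miR-215 the log2 fold changes were -2.71 in SS and -2.24 in NS steers, and for bta-miR-9-5p -0.94 in SS and -1.08 in NS steers, with unadjusted p-values of the difference of 0.650 and 0.755. With 5 steers of each phenotype, the missing calls do not show that the phenotypes were alike.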

How the data were processed

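The counts deposited by the authors are raw reads per miRNA from sRNAtoolbox run with its defaults, for 608 rows, 2 rows of which stand for 2 names each. The submitters' processing notes name Bowtie and edgeR without versions, and the genome build is not given in the sources used here. All 60 columns of counts were mapped and 0 were left unused. CPM used the library total. Tests used edgeR 4.0.16 in R 4.3.3 (TMM, quasi-likelihood test with steer and region as terms, Benjamini-Hochberg adjustment, FDR of 10%) or exact two-sided sign-change permutation tests (scipy 1.17.1) over the 10 within-steer differences. The study itself compared SS with NS by edgeR's exact test, with this FDR and a like filter.

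The libraries pair by steer, as the titles give it. Deviations from the group means correlated by 0.174 on average within a steer (-0.174 to 0.338, 8 of 10 above 0.1) and by -0.018 between steers. Replicates are different steers, and all 40 pairs of libraries of a region and phenotype differed by more than sampling noise (chi-square per degree of freedom of at least 59.8).

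Named miRNAs are those past the FDR, the HOX cluster list, the 10 most abundant, list members past the FDR, other arms of these, and bta-miR-378b, bta-miR-2284d, bta-miR-2284j, bta-miR-451, bta-miR-2904 and bta-miR-6526; other miRNAs in the text were named after their values were seen. The members, the lists and the tests were chosen with earlier results of these data known. Neighbouring genes came from RefSeq (ARS-UCD2.0), where 349 of the 364 miRNAs matched. No miRNA sequences were used here. Alternatives were DESeq2 1.42.0, limma-voom (limma 3.58.1), the exact test of edgeR, no steer block, DESeq2 size factors (RLE), library size alone, other filters, an FDR of 5%, all 60 libraries, thinned counts and each steer left out. The fit without NS165, SS294 and SS299 and the ratios of bta-miR-215 were added after seeing the data. The tests were checked on simulated data, with 15 changes of 2-fold and 15 of 4-fold among 364 miRNAs. The test of cecum against spiral colon recovered 12 and 15 of them, with 4 false calls. The interaction test recovered 0 and 11, with 1 false call, and the test within SS 6 and 12, with 0. The interaction test could thus miss differences of 2-fold.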

Additional observations from a re-analysis of the deposited data

Results flagged for a closer look

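Among 29 sets of 10 or 5 values that were searched for a sample far from the others, 1 held such a sample, and chance alone flags about 1 in 20. The cecum library of NS108 had 384 miRNAs above 1 CPM, against a median of 324.5 over the 10 cecum libraries. This was also the smallest cecum library, with 875432 counts, where 1 count exceeds 1 CPM, so that every miRNA with a count was above the limit. After thinning of all 20 libraries to that total, the spiral colon library of SS299 had 384 as well.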

How the results depend on the processing

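With the replicate block left out, 3 miRNAs were called as with it, and the exact test of edgeR, also without the pairing, called 4. Without the block, calls within SS went to 2. The count of calls was 13 with DESeq2 (6 higher and 7 lower in the cecum), 1 with library size alone (0 lower) and 1 of 263 tested with filterByExpr (0 higher, 1 lower), a filter that leaves out bta-miR-6526. It was 7 without NS165, SS294 and SS299 (3 higher, 4 lower), and 1 miRNA was lower with all 60 libraries or at an FDR of 5%. With a steer left out the count was 1 to 6, with 1 to 4 higher (4 without SS299, where bta-miR-147, bta-miR-378 and bta-miR-378b were added) and 0 to 3 lower (0 without SS274). Over all alternatives the adjusted p ran over 5.05e-06 to 0.0663 for bta-miR-6526, 3.47e-07 to 0.130 for bta-miR-215 and 0.000781 to 0.269 for bta-miR-9-5p. The difference in miRNAs detected turned to -0.3 after thinning and ranged over -0.444 to 9.11 with a steer left out. The share of bta-miR-10b passed with TMM-scaled library sizes (difference of 3.03 percentage points, adjusted p = 0.0391) and was 2.95 to 4.08 with a steer left out, where the shares of bta-miR-192, bta-miR-21-5p and bta-miR-22-3p differed by -0.171 to 2.11, -0.0550 to 0.196 and 0.208 to 0.401. Without the 3 steers, the shares of bta-miR-26a and bta-miR-26c turned to 0.179 and 0.176, and these near-identical miRNAs may share reads. Log2 fold changes that turned, none of them called, were those of bta-miR-192 (-0.022 with all 60 libraries, -0.016 without a filter), bta-miR-27b (-0.20 without the 3 steers), bta-miR-2284d (-0.15 thinned), bta-miR-9-3p (-0.018 with all 60 libraries) and bta-miR-21-3p (-0.14 with all 60 libraries, -0.0696 without the block in both tests). With a steer left out, bta-miR-192 ranged over -0.15 to 0.18, bta-miR-27b -0.010 to 0.20, bta-miR-21-5p -0.0198 to 0.12, bta-miR-2284d -0.092 to 0.28, bta-miR-9-3p -0.27 to 0.29 and bta-miR-21-3p -0.018 to 0.29. The interaction test called 0 under every alternative run. The causes were not tested. Depth limits the miRNAs under 10 CPM most.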
